A study of Mus musculus with 6 samples.

Results

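NK cell receptor and cytotoxic granule genes were followed in sorted microglia, the macrophages that live in brain tissue, from mice given an antibody that depletes natural killer (NK) cells or a control antibody. The 10 genes, of 24956 gene rows in the count table, were taken by symbol: the receptors Klrb1c, Ncr1, Klrd1, Klrk1 and Klre1, the granule genes Nkg7, Gzma, Gzmb and Prf1, and the transcription factor Eomes. All mice were 3XTg-AD, a strain that carries human transgenes linked to Alzheimer's disease and tau pathology, and all were 7 months old. The anti-NK1.1 group (3 libraries) received 25 µg of anti-NK1.1 antibody and the isotype group (3 libraries) the same amount of isotype antibody, in both cases every 4 days for 4 weeks. The comparison addresses how sorted microglia of this model differ once NK cells have been depleted, and these genes include the one that encodes the antibody's target. Several of them are also expressed by other lymphocytes. The labels give neither the gate of the sort nor the number of animals behind a library, so p-values measure the spread between these libraries.

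NK cells are lymphocytes that kill stressed or infected cells without a rearranged antigen receptor. They weigh signals from activating and inhibitory surface receptors, many of them C-type lectins encoded side by side in the NK gene complex, and then release granules that hold the pore-forming protein perforin and the serine proteases called granzymes. NK1.1, the target of the antibody, is the product of Klrb1c, and it is also carried by NKT cells and by group 1 innate lymphoid cells. CD8 T cells use much of the same killing machinery, so the granule genes, Klrd1, Klrk1 and Eomes are not restricted to NK cells.

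Gene counts totalled 26.9 to 31.4 M in the anti-NK1.1 libraries and 31.9 to 36.1 M in the isotype libraries. Levels are given as CPM, the usual unit scaled for depth, with library sizes adjusted by the TMM method of edgeR. In a single library 3 counts, the upper limit that a count of 0 allows, came to 0.0784 to 0.120 CPM. The markers of the labelled cell type were abundant in every library: the summed level of 11 microglia markers lay between 31630 and 38730 CPM in the anti-NK1.1 libraries and between 34070 and 38050 CPM in the isotype libraries, and P2ry12, a purinergic receptor, and Tmem119, a membrane protein typical of microglia, averaged 3254 and 3086 CPM in the anti-NK1.1 libraries and 4875 and 2367 CPM in the isotype libraries. In anti-NK1.1 3 and in every isotype library the summed level of 13 neutrophil markers was higher than that of the microglia markers. It was 136800 CPM in anti-NK1.1 3 and 71690 to 99020 CPM in the isotype libraries. In anti-NK1.1 1 and 2 it was 31220 and 32080 CPM. Abundant microglia markers therefore do not show a pure sort. The libraries also differed in how they represented long transcripts. Spearman's rho across genes between transcript length and the deviation of a library from the mean was -0.15, 0.21 and -0.29 in anti-NK1.1 libraries 1 to 3 and 0.01, 0.02 and 0.29 in isotype libraries 1 to 3. The part of this trend in the results below was not tested beyond the length-corrected values given with them.

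The 10 genes together made up a small share of the RNA and lay lower in the anti-NK1.1 libraries. Their summed level was 42.6, 45.2 and 76.8 CPM in the anti-NK1.1 libraries and 125, 135 and 91.9 CPM in the isotype libraries. The groups did not overlap, and the means were 54.9 ± 19.1 and 117 ± 22.5 CPM (SD, n = 3 each), a log2 ratio of -1.10. Nkg7 and Klrd1 supplied 73.7% to 90.9% of this sum in the anti-NK1.1 libraries and 77.2% to 85.4% in the isotype libraries. Without them the other 8 genes summed to 11.2, 5.55 and 7.02 CPM in the anti-NK1.1 libraries and to 18.4, 28.6 and 21.0 CPM in the isotype libraries, a log2 ratio of -1.51. In bulk samples fewer cells of a type and less RNA per cell cannot be told apart.

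By mean CPM, 8 of the 10 genes were lower in the anti-NK1.1 libraries and Klrk1 and Eomes were higher, while 46.4% of all genes with a count were lower. No gene passed edgeR's quasi-likelihood test at an adjusted p of 0.05 over 14520 tested genes (0% called, smallest adjusted p 0.296), and no member did with DESeq2, which called 0.242% of genes as lower. At an unadjusted p under 0.05 edgeR had 2 members, Nkg7 and Gzma, both lower, where 3.8% of all tested genes were lower at that level. For 3 members, Klrb1c, Klrd1 and Gzma, every anti-NK1.1 library lay below every isotype library, which was so for 7.59% of all tested genes. The median log2 change of the 9 members that passed the filter on low counts was -1.20, against 0.01 for all tested genes. Ncr1 did not pass that filter, and Klrb1c and Gzmb reached its minimum of 0.316 CPM in 3 isotype libraries and in 1 anti-NK1.1 library, so these 2 passed through the isotype group. Klre1 reached it in 2 isotype libraries and in 1 anti-NK1.1 library. Eomes reached it in 3 anti-NK1.1 libraries and in 1 isotype library and passed through the anti-NK1.1 group.

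**Figure D1:**
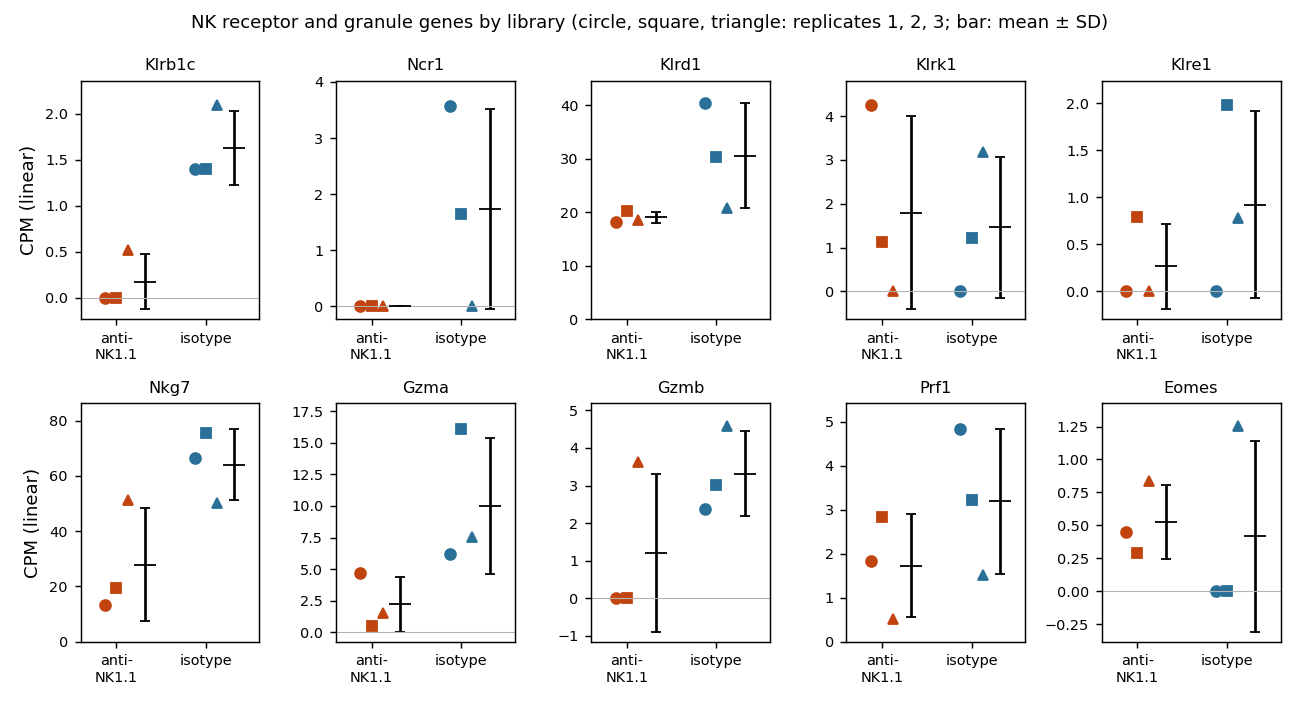
Level of each of the 10 genes in CPM (linear axis, TMM-scaled) in the 3 anti-NK1.1 libraries and the 3 isotype libraries. Circle, square and triangle mark replicates 1, 2 and 3 and the bar gives mean ± SD. For Klrb1c, Klrd1 and Gzma the anti-NK1.1 libraries lie below all isotype libraries. For Ncr1, Klrk1, Klre1, Nkg7, Gzmb, Prf1 and Eomes the groups overlap.

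The sequences upstream of the gene starts are shown for the 6 receptor and granule genes that were lower on average in anti-NK1.1 libraries and that encode the antibody target, the NK cell receptor NKp46 and the granule proteins. They are RefSeq's sequences on GRCm38.p6, the last 250 bases before the start read 5′ to 3′ on the gene's strand, with capitals marking matches to 3 motifs of 6 letters on either strand: GTGTGA, a T-box core bound by factors such as Eomes, TGTGGT, a Runx core, and GGAAGT, an Ets core. The windows are chr6:128788642-128788891 on the minus strand for Klrb1c, chr7:4337465-4337714 on the plus strand for Ncr1, chr7:43436888-43437137 on the plus strand for Nkg7, chr13:113100982-113101231 on the minus strand for Gzma, chr14:56262335-56262584 on the minus strand for Gzmb and chr10:61297586-61297835 on the plus strand for Prf1. RefSeq's starts are not always those of the GENCODE genes whose positions are given below: the Klrb1c start lies 574 bases inside the GENCODE gene, so that its whole window is within the gene, and the Nkg7 start lies 65 bases inside, so that the end of its window is too.
Klrb1c: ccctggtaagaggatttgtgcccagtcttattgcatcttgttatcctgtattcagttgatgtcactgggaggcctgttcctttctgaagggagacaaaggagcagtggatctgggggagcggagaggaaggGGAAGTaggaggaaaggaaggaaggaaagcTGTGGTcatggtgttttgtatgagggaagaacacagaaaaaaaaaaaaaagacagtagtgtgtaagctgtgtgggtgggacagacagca
Ncr1: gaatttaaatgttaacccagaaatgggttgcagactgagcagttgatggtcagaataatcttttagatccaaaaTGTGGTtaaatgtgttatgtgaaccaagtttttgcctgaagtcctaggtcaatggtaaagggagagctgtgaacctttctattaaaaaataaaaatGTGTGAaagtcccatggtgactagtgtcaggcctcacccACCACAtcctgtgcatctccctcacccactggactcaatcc
Nkg7: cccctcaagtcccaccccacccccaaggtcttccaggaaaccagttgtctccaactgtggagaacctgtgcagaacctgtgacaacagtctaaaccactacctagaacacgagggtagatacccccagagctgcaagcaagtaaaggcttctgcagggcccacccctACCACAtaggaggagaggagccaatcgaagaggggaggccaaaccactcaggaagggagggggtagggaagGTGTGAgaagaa
Gzma: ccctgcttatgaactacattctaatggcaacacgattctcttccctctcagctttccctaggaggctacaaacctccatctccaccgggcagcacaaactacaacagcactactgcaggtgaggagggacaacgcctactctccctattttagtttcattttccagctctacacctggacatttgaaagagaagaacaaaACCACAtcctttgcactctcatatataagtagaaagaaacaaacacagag
Gzmb: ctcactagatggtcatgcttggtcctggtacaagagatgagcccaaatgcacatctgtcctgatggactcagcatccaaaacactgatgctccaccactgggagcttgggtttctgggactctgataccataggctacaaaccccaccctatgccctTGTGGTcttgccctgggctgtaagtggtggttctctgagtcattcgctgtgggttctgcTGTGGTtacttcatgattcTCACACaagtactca
Prf1: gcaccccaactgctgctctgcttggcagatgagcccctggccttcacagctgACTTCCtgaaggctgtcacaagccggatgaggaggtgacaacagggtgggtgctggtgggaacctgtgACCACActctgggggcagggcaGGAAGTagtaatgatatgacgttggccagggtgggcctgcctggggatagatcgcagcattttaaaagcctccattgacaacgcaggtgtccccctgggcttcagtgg

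The promoter table held 9 of the 10 genes, in 11 windows. A T-box core stood in 5 of these 11 windows, from 4 genes (Ncr1, Klre1, Nkg7 and Gzmb), and in 12.3% of all 32817 upstream windows. A Runx core stood in 9 of the 11 windows, from 8 of the 9 genes, all but Eomes, and in 14.04% of all windows. An Ets core stood in 2 of the 11 windows, those of Klrb1c and Prf1, and in 19.7% of all windows. The RefSeq starts of Klre1 lie 308 and 381 bases inside its GENCODE gene. No matches overlapped one another in the members' windows. These are matches of letters and were not tested as binding sites.

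Among the receptors, Klrb1c, which encodes NK1.1 itself, was nearly absent after the depleting antibody. Klrb1c (chromosome 6, 128778485 to 128789215, minus strand, GRCm38) had 0, 0 and 13 counts in the anti-NK1.1 libraries and 50, 45 and 80 counts in the isotype libraries. The anti-NK1.1 3 library alone of its group held any, at 0.518 CPM, below the 1.39 to 2.09 CPM of the isotype libraries. Pooled over the groups and scaled by depth the level was 0.0920 times that of the isotype group (exact 95% counting interval 0.0480 to 0.161). With a library left out it ranged from 0.153 without anti-NK1.1 2 to at most 0.0300, a limit from 3 counts, without anti-NK1.1 3, which held every count of its group. The edgeR log2 change was -3.23 ± 1.82 (SE), with an adjusted p of 0.743, and an exact two-sided permutation test of the CPM gave p = 0.1, the smallest that 3 against 3 libraries allow. Its annotation shares 413 exonic bases on the same strand with the predicted gene Gm44511. That gene has no row in the count table, so whether the overlap affected the Klrb1c counts is not known.

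Ncr1, which encodes the activating receptor NKp46 (chromosome 7, 4337724 to 4345164), was not detected in any anti-NK1.1 library. It had 0, 0 and 0 counts in the anti-NK1.1 libraries and 128, 53 and 0 counts in the isotype libraries. Isotype 3 thus lacked it as well, although the same library held the most Klrb1c. With 3 counts set for the whole anti-NK1.1 group as the limit, the pooled level was at least 48.7-fold lower by counting error alone. It is no bound on the difference between the groups, since a library such as isotype 3 can lack the gene altogether. This limit was 21.5-fold without isotype 1 and 29.3-fold to 76.1-fold without any other 1 library. The groups overlapped at 0, an exact two-sided permutation test of the CPM gave p = 0.4, and no fitted change is given because the gene did not pass the filter.

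Klrd1, which encodes CD94, a partner of lectins such as NKG2A, was the most abundant of the receptors and was measured in every library. It had 484, 694 and 468 counts in the anti-NK1.1 libraries and 1451, 978 and 798 counts in the isotype libraries. The anti-NK1.1 libraries lay close together at 19.0 ± 1.08 CPM, below isotype libraries that spread over 30.5 ± 9.82 CPM (SD, n = 3 each). The highest anti-NK1.1 value, 20.3 CPM, was next to the lowest isotype value, 20.8 CPM. Klrd1 had a log2 change of -0.68 ± 0.34 (SE, edgeR adjusted p = 0.743), and -0.88 after correction for transcript length. Its partner gene Klrc1, which encodes NKG2A, had 34 counts in anti-NK1.1 2 and 0 in the other 5 libraries, and Klrc2 had none in any library.

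Klre1, a lectin that pairs with the products of Klri1 and Klri2, and Klrk1, which encodes the activating receptor NKG2D, were sparse and irregular. Klre1 had 0, 27 and 0 counts in the anti-NK1.1 libraries and 0, 64 and 30 counts in the isotype libraries, with a log2 change of -1.77 ± 2.15 (SE, edgeR adjusted p = 0.852). Klrk1 had 113, 39 and 0 counts in the anti-NK1.1 libraries and 0, 39 and 122 counts in the isotype libraries, with a log2 change of 0.29 ± 1.89 (SE, edgeR adjusted p = 0.976). The groups overlapped for both genes, and each gene had no count in at least 1 library of each group. The sign of the Klrk1 value turned to -1.35 without anti-NK1.1 1 and to -0.28 without isotype 1, which held the most of it and none of it.

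Among the granule genes Nkg7, which encodes a membrane protein of cytotoxic granules, was the most abundant of all 10. It had 349, 665 and 1284 counts in the anti-NK1.1 libraries and 2386, 2440 and 1915 counts in the isotype libraries. In CPM this was 13.1, 19.4 and 51.2 in the anti-NK1.1 libraries and 66.6, 75.7 and 50.03 in the isotype libraries. Anti-NK1.1 1 and 2 lay well below every isotype library, and anti-NK1.1 3 lay just above isotype 3, so the groups overlapped. Nkg7 had a log2 change of -1.20 ± 0.47 (SE, edgeR adjusted p = 0.727), which was -1.98 without anti-NK1.1 3 and -0.86 to -1.35 without any other 1 library.

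The granzymes Gzma and Gzmb, proteases that act in the target cell, differed in which libraries held them. Gzma had 124, 17 and 38 counts in the anti-NK1.1 libraries and 222, 520 and 290 counts in the isotype libraries. Every anti-NK1.1 library was below every isotype library, with 4.67, 0.497 and 1.51 CPM in the anti-NK1.1 libraries and 6.19, 16.1 and 7.58 CPM in the isotype libraries, and the log2 change was -2.16 ± 0.86 (SE, edgeR adjusted p = 0.727). Gzmb had 0, 0 and 91 counts in the anti-NK1.1 libraries and 85, 97 and 175 counts in the isotype libraries. Anti-NK1.1 3 was within the isotype range at 3.63 CPM and the other anti-NK1.1 libraries had none, and its log2 change of -1.46 ± 1.82 (SE, edgeR adjusted p = 0.856) became -9.80 without anti-NK1.1 3.

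Prf1, which encodes perforin, was found in every library with wide and overlapping values. It had 49, 97 and 13 counts in the anti-NK1.1 libraries and 173, 104 and 58 counts in the isotype libraries, a log2 change of -0.88 ± 0.98 (SE, edgeR adjusted p = 0.842). Eomes, a T-box factor of mature NK cells and of memory CD8 T cells, had 12, 10 and 21 counts in the anti-NK1.1 libraries and 0, 0 and 48 counts in the isotype libraries, a log2 change of 0.32 ± 1.92 (SE, edgeR adjusted p = 0.973). The sign of the Eomes value turned to -0.18 without anti-NK1.1 3 and to -0.25 without isotype 1 or without isotype 2, and the value was 7.03 without isotype 3, the only isotype library with a count. Of the 10 genes, Eomes was the only one present in all anti-NK1.1 libraries and missing from more than 1 isotype library. It shares 118 exonic bases with the antisense gene Gm33460, which has no row in the count table. Library kits of this type do not mark strand.

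**Figure D2:**
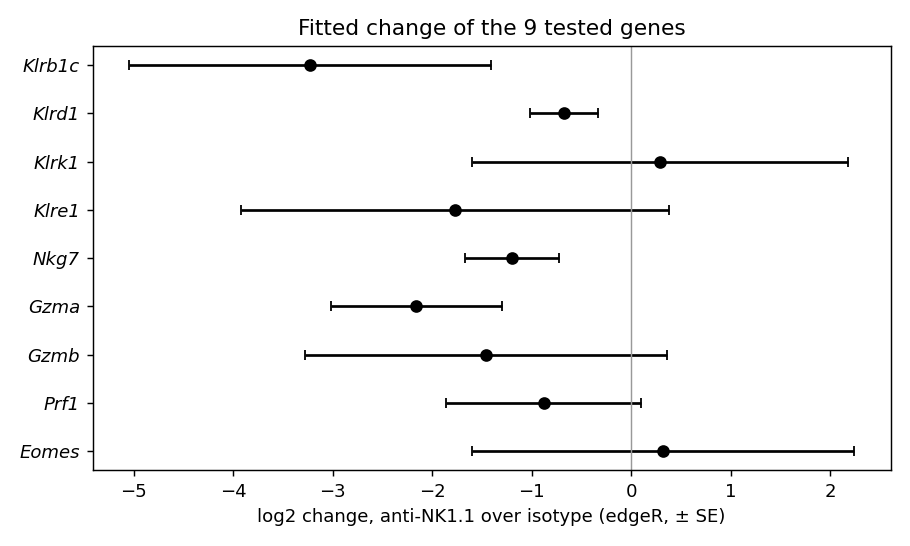
Fitted log2 change, anti-NK1.1 over isotype, of the 9 genes that passed the filter on low counts, with bars of ± 1 SE from edgeR's quasi-likelihood fit over 14520 genes. Only Klrd1, Nkg7 and Gzma have an SE below 0.9, and none of the 9 has an adjusted p under 0.05.

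Within a group, the genes did not share 1 order of libraries. Isotype 1 held the most Ncr1, Klrd1 and Prf1 of the isotype libraries and no Klrk1, Klre1 or Eomes, while isotype 3 held the most Klrb1c, Klrk1, Gzmb and Eomes and no Ncr1. In the anti-NK1.1 group, anti-NK1.1 3 held the most Nkg7 and all of the Klrb1c and Gzmb, and anti-NK1.1 1 the most Gzma and Klrk1. The number of the 10 genes with no count was 4, 3 and 3 in anti-NK1.1 libraries 1 to 3 and 3, 1 and 1 in isotype libraries 1 to 3. Gaps of this kind were common at these levels: of 1999 genes with a mean of 0.25 to 1 CPM, 76.7% had no count in at least 1 library, as had all 4 members in that range (Klrb1c, Ncr1, Klre1 and Eomes). Of 3204 genes with a mean of 1 to 5 CPM the share was 27.9%, and 2 of 3 members in that range had such a gap. At 20 to 100 CPM, the range of Klrd1 and Nkg7, the share was 0.0662%. SMART-seq reads carry no molecular identifiers, so the number of molecules behind a count is not known, and the intervals given here cover counting error only.

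Per kilobase of merged exon length, the order of the levels in the isotype libraries was led by Nkg7 at 70.1 ± 14.2 CPM per kb, Klrd1 at 23.9 ± 7.66 CPM per kb and Gzma at 9.90 ± 5.35 CPM per kb (SD, n = 3 each), and the ranges of these neighbours did not overlap. Gzmb followed at 2.31 CPM per kb, Prf1 at 1.23, Ncr1 at 1.13, Klrb1c at 0.549, Klre1 at 0.264, Klrk1 at 0.204 and Eomes at 0.101 CPM per kb, and from Gzmb down every gene overlapped the next. In the anti-NK1.1 libraries Nkg7 at 30.5 ± 22.3 CPM per kb overlapped Klrd1 at 14.9 ± 0.845 CPM per kb. The merged length of Klrk1, 7183 nt over its alternative exons, lowers its value on this scale.

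**Figure D3:**
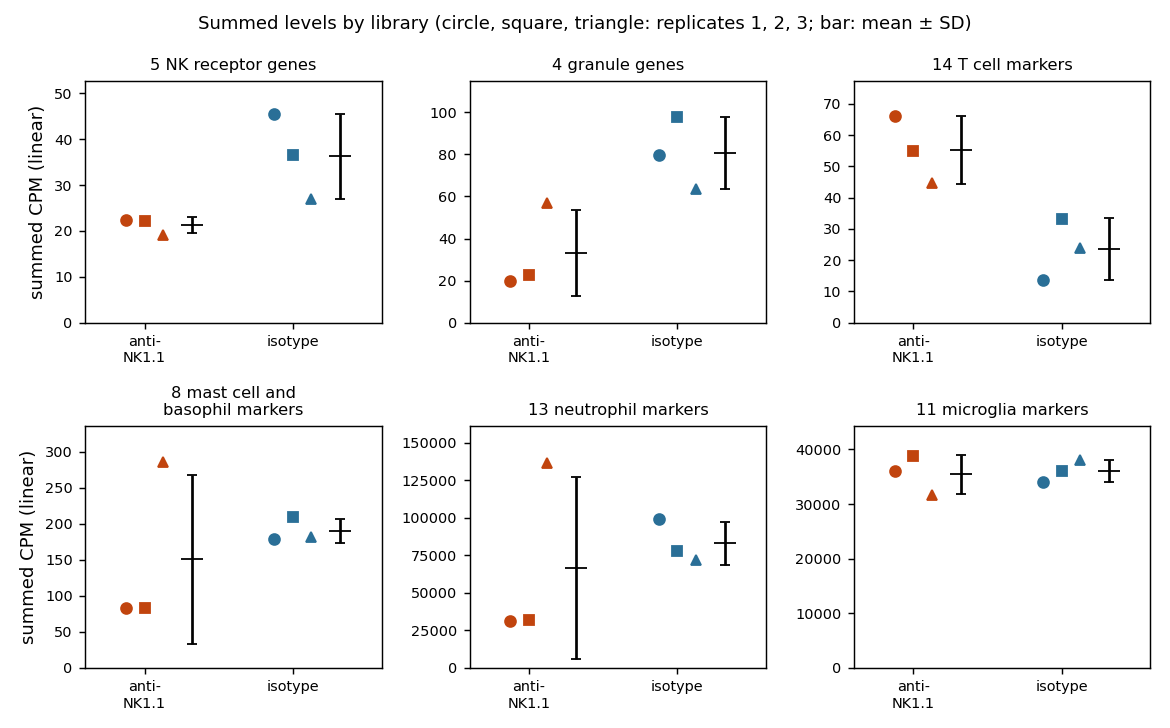
Summed level in CPM (linear axes from 0) of the NK receptor genes, the granule genes and 4 lists of cell type markers in the 3 anti-NK1.1 and the 3 isotype libraries, with replicates as circle, square and triangle and bars of mean ± SD. The receptor and granule sums lie lower in every anti-NK1.1 library, and the T cell sum lies higher. Anti-NK1.1 3 is the highest of its group for granule genes. Its neutrophil sum, mostly S100a8, S100a9 and Ngp, is the highest of all libraries. So is its mast cell and basophil sum, where Hdc alone gives 238.5 of its 286 CPM.

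The 5 receptor genes summed to 22.5, 22.2 and 19.2 CPM in the anti-NK1.1 libraries and to 45.4, 36.6 and 26.9 CPM in the isotype libraries. The 4 granule genes summed to 19.6, 22.8 and 56.8 CPM in the anti-NK1.1 libraries and to 80.0, 98.0 and 63.7 CPM in the isotype libraries. The 2 sums differed in where anti-NK1.1 3 stood: it was the lowest library of all for the receptors and the highest of its group for the granule genes. In the same libraries, 13 neutrophil markers summed to 31220, 32080 and 136800 CPM in the anti-NK1.1 libraries and to 99020, 77920 and 71690 CPM in the isotype libraries. Anti-NK1.1 3 thus had the highest sum of all 6. S100a8, S100a9 and Ngp supplied most of it, with 48930, 40780 and 26900 CPM in anti-NK1.1 3, so the sum does not give the order of libraries for the other markers. By fitted change all 13 were nevertheless lower, with a median log2 change of -0.52, while 50.9% of all tested genes had a positive one. Of the 13, 4 had an unadjusted edgeR p under 0.05, where 3.8% of all tested genes were lower at that level. For Mpo, Cxcr2 and Csf3r every anti-NK1.1 library lay below every isotype library, which was so for 7.59% of all tested genes. None of the 13 was called. Cxcr2, a chemokine receptor of neutrophils, had a log2 change of -0.94 ± 0.30, Csf3r, the receptor for the growth factor G-CSF, -0.52 ± 0.21, and the protease Mmp9 -0.90 ± 0.35 (SE). The 8 mast cell and basophil markers, all detected, summed to 82.4, 83.2 and 286 CPM in the anti-NK1.1 libraries and to 178, 209 and 182 CPM in the isotype libraries, and all 6 that were tested had a negative log2 change (median -0.92, none called). Hdc, the enzyme that makes histamine, supplied most of that sum, with 51.9, 60.0 and 238.5 CPM in the anti-NK1.1 libraries and 117, 137 and 131 CPM in the isotype libraries. The other 7 markers, summed without Hdc after its values were seen, had 30.5, 23.3 and 47.7 CPM in the anti-NK1.1 libraries and 61.3, 71.7 and 50.9 CPM in the isotype libraries, so that anti-NK1.1 3 was no longer above the isotype libraries. Mcpt8, a basophil protease, had 23.2, 17.3 and 40.7 CPM in the anti-NK1.1 libraries and 44.6, 51.3 and 34.5 CPM in the isotype libraries. The part of these cells in the Nkg7 and Gzmb values was not tested.

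T cell transcripts had values in the other direction. Of 17 T cell markers 14 were in the count table and 12 were tested; all 12 had a positive log2 change, as had 50.9% of all tested genes, while their median was 1.22, and none passed over all genes. The other 2 in the table had counts in isotype libraries only and did not pass the filter on low counts. Cd5 had 0, 0 and 0 counts in the anti-NK1.1 libraries and 0, 36 and 34 in the isotype libraries. Themis had 0, 0 and 0 counts in the anti-NK1.1 libraries and 0, 0 and 51 in the isotype libraries. Tcf7 had 218, 62 and 144 counts in the anti-NK1.1 libraries and 0, 0 and 90 in the isotype libraries. For Lat these were 121, 84 and 55 counts and 0, 137 and 3 counts. Tcf7 and Lat passed the filter through the anti-NK1.1 group, so the filter contributed to the 12 positive values. The summed level of the T cell markers was 66.2, 54.9 and 44.5 CPM in the anti-NK1.1 libraries and 13.6, 33.3 and 23.8 CPM in the isotype libraries. Cd3e, a subunit of the T cell receptor complex, averaged 8.38 CPM in the anti-NK1.1 libraries and 2.51 CPM in the isotype libraries, and Cd8a, the coreceptor of CD8 T cells, 2.82 and 2.34 CPM. Cd3g and Cd8b1 had log2 changes of 1.14 ± 0.66 and 1.45 ± 0.70 (SE). The part of T cells in the values of the members that CD8 T cells also express was not tested.

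Other NK receptors were mostly too sparse to compare. Of 17 genes for NK surface receptors 8 were tested, 5 with a lower and 3 with a higher value, and none was called. Il18rap, a subunit of the interleukin-18 receptor, averaged 4.98 CPM in the anti-NK1.1 libraries and 14.9 CPM in the isotype libraries, with a log2 change of -1.58 ± 0.69 (SE, edgeR adjusted p = 0.743). Il2rb, the beta chain shared by the interleukin-2 and interleukin-15 receptors, had 1.69, 0.321 and 5.22 CPM in the anti-NK1.1 libraries and 2.51, 5.09 and 5.30 CPM in the isotype libraries. S1pr5 is a sphingosine-1-phosphate receptor of NK cells that oligodendrocytes also express. It had 34.6, 17.3 and 43.3 CPM in the anti-NK1.1 libraries and 13.2, 8.5 and 11.6 CPM in the isotype libraries. The means were 31.7 and 11.1 CPM, with a log2 change of 1.51 ± 0.42 (SE, edgeR adjusted p = 0.727). Crtam, a receptor of activated NK and CD8 T cells, had a log2 change of 2.56 ± 1.85 (SE).

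Among the relatives of Klrb1c, Klrb1f, which encodes another NKR-P1 receptor, had 3, 37 and 75 counts in the anti-NK1.1 libraries and 242, 234 and 339 counts in the isotype libraries. Every anti-NK1.1 library lay below every isotype library, and the log2 change was -2.45 ± 1.01 (SE, edgeR adjusted p = 0.736). Klrb1b, an inhibitory NKR-P1 receptor, had 148, 309 and 32 counts in the anti-NK1.1 libraries and 144, 236 and 74 counts in the isotype libraries, so replicate 3 was the lowest of each group and the groups overlapped. Klra2, a Ly49 receptor found on myeloid cells, had 31.2 CPM on average in the anti-NK1.1 libraries and 22.0 CPM in the isotype libraries. These 3 were the only tested genes of 13 in the Ly49 and NKR-P1 list, 4 of the 13 had no count anywhere, and counts within these families are uncertain because the genes share sequence.

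The adaptors through which the receptors signal had overlapping groups. Tyrobp, which encodes DAP12 and which microglia express at high levels, averaged 3362 CPM in the anti-NK1.1 libraries and 2567 CPM in the isotype libraries, and Fcer1g averaged 2798 and 2147 CPM. Hcst, which encodes DAP10, the adaptor of NKG2D, had 72.0, 28.9 and 119 CPM in the anti-NK1.1 libraries and 88.4, 86.6 and 67.8 CPM in the isotype libraries, a log2 change of -0.15 ± 0.43 (SE). The kinase Syk and the exchange factor Vav1 had log2 changes of -0.84 ± 0.40 and -0.39 ± 0.21 (SE). Of 12 genes in this list 9 were tested, 5 lower and 4 higher, with none called.

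Of 10 NK transcription factors 9 were tested, 3 lower and 6 higher, and none was called. Tbx21, which encodes T-bet, the relative of Eomes, had 0, 36 and 81 counts in the anti-NK1.1 libraries and 102, 26 and 0 counts in the isotype libraries, so it was missing from 1 library of each group. Prdm1, Ets1 and Ikzf3 had log2 changes of -1.26 ± 0.66, -0.64 ± 0.35 and 1.65 ± 1.54 (SE). Of 15 further granule and secretion genes 12 were tested, 6 lower and 6 higher. Rab27a, a GTPase of granule release, had a log2 change of -1.13 ± 0.44, Serpinb9, an inhibitor of granzyme B, -0.72 ± 0.48, and Gzmk, a granzyme of T cells, 2.74 ± 1.89 (SE). Of 8 death ligands and cytokines 6 were tested, 5 lower and 1 higher, with Ccl5 at 38.3 CPM in the anti-NK1.1 libraries and 37.8 CPM in the isotype libraries, Ifng at 0, 118 and 0 counts in the anti-NK1.1 libraries and 113, 68 and 35 counts in the isotype libraries, and Tnfsf10 and Ccl4 with log2 changes of -0.73 ± 0.89 and -0.14 ± 0.43 (SE). None of these genes passed edgeR's test over all genes.

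Across the 6 libraries, the genes with the closest pattern to the mean log2(CPM + 0.5) of the 10 members, among 9812 named genes with a mean of at least 5 CPM, were Cpa3, a mast cell carboxypeptidase (Pearson's r = 0.998), the cell cycle factor E2f8 (0.988), the replication helicase subunit Mcm3 (0.985), Skiv2l, a helicase of RNA decay (0.981), and the motor protein Myo7a (0.969). These are descriptions over 6 libraries that also differ in depth and makeup, and 11 genes reached an r of 0.95. Cpa3 had 3.50, 2.86 and 3.75 CPM in the anti-NK1.1 libraries and 8.12, 11.01 and 8.75 CPM in the isotype libraries.

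**Figure D4:**
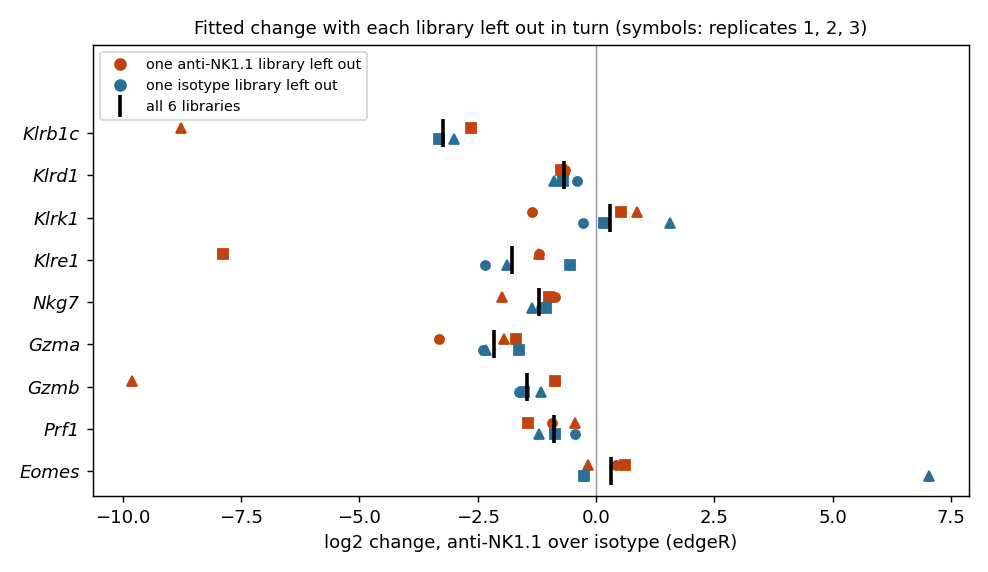
Fitted log2 change of the 9 tested genes, anti-NK1.1 over isotype, with all 6 libraries (black bar) and with each library left out in turn (colour by the group of the library left out, symbol by its replicate number). Klrd1, Nkg7, Gzma and Prf1 keep a narrow range below 0, while Klrb1c, Gzmb, Klre1 and Eomes jump to values beyond 7 in size where the library left out was the last of its group with any count.

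Leaving out a library moved the sparse genes far more than the abundant ones. The range over the 6 reduced sets was -0.90 to -0.41 for Klrd1, -1.98 to -0.86 for Nkg7, -3.31 to -1.63 for Gzma and -1.43 to -0.44 for Prf1. It was -8.77 to -2.64 for Klrb1c, -9.80 to -0.87 for Gzmb, -7.87 to -0.56 for Klre1, -1.35 to 1.56 for Klrk1 and -0.25 to 7.03 for Eomes. The extremes of Klrb1c and Gzmb came without anti-NK1.1 3, that of Klre1 without anti-NK1.1 2 and that of Eomes without isotype 3; fitted values against a group with no count depend on the prior count and are no bounds. Correction for transcript length gave -1.48 for Nkg7, -2.53 for Gzma and -3.34 for Klrb1c.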

How the data were processed

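Bulk RNA was sequenced from sorted microglia in 3 anti-NK1.1 and 3 isotype libraries. Per the labels' protocols, Trizol-LS was used for the RNA, SMART-seq v4 for the cDNA and Nextera XT for the libraries, which were read as single ends of 75 bp on an Illumina NextSeq instrument. STAR 2.5.3a, DESeq2 1.1 and Cufflinks 2.0 are named in the submitters' processing notes, with build mm10, and the sources used here give no counting program, annotation or strand setting. The table deposited by the authors is titled as normalized but holds read counts per gene, as whole numbers with differing totals, so the count test that had been foreseen for that case was used. Of its rows, 26 with calendar dates in place of symbols were left out, and the 2 rows of reads in no feature (53.3% to 57.4% of reads) and ambiguous reads stayed out of library sizes.

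Genes were filtered with filterByExpr (14520 kept), scaled with TMM factors and tested two-sided with edgeR 4.0.16 (R 4.3.3; quasi-likelihood F-test, group as the only term, Benjamini-Hochberg adjustment over all tested genes, threshold 0.05). The SE is the absolute log2 change divided by the square root of F. The script was tested on simulated data. DESeq2 1.42.0 was the alternative test, and the others were DESeq2 size factors, no filter, a replicate block, a loess correction for transcript length (GENCODE M21, GRCm38; a length for 99.1% of tested genes), each library left out, and, chosen after seeing the data, the set without anti-NK1.1 1 and 3 and the sum without Nkg7 and Klrd1. Permutation tests were exact (scipy 1.17.1).

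The members and lists were chosen with earlier results of these data known. Named genes are all 10 members, up to 3 tested genes of smallest p per list, a few genes named whatever their values, and the 5 genes of closest pattern; some of those from the marker lists are not reported here.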

Additional observations from a re-analysis of the deposited data

How the results depend on the processing

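All 9 tested members stayed above an adjusted p of 0.05 in each of the alternatives run, and Ncr1, tested in 6 of them, had adjusted p-values of 0.277 to 0.999. The count of genes called by edgeR over all genes, 0 with all libraries, was 83 with DESeq2 (48 higher, 35 lower), and it ranged from 0 to 129 when a library was left out. The 129 calls came without anti-NK1.1 2, and neither the 9 members nor Ncr1 (adjusted p = 0.277) was among them; the cause was not tested. Of 9 tested members 7 were lower, while 50.9% of all tested genes had a positive log2 change. With a library left out 8 to 9 of 9 or 10 tested were lower. Where 10 were tested the added member was Ncr1. It had no count in any anti-NK1.1 library, so it passed the filter through the isotype group and could only be lower.

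Directions turned for Klrk1 and Eomes alone, from values close to 0. Klrk1 had a log2 change of -0.05 with the replicate block, -1.35 without anti-NK1.1 1, -0.28 without isotype 1 (range -1.35 to 1.56 with a library left out) and -0.37 without anti-NK1.1 1 and 3. Eomes had -0.18 without anti-NK1.1 3, -0.25 without isotype 1, -0.25 without isotype 2 (range -0.25 to 7.03 with a library left out) and -0.52 without anti-NK1.1 1 and 3. The log2 ratio of the summed level, -1.10 with all libraries, ranged from -1.42 to -0.94 with a library left out, and it was -1.51 without Nkg7 and Klrd1. The pooled Klrb1c ratio ranged from 0.0300 to 0.153 with a library left out, where 0.0300 is an upper limit from a floor of 3 counts without anti-NK1.1 3.

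The labels give both groups the replicate numbers 1 to 3, but nothing says that they pair animals. Deviations of same-numbered libraries from their group means correlated at 0.053, 0.030 and -0.004. Those of differently numbered libraries correlated at -0.053 to 0.032. Such values cannot show whether same-numbered libraries shared a litter or a processing step, so pairing remains unknown. With the replicate block the count of called genes was 0, and 8 of 9 tested members were lower. The block moved the log2 change of Gzmb to -5.55, of Klrb1c to -5.40, of Klre1 to -3.02 and of Eomes to 3.44.

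By counting error alone a count of 0 allows up to 3 counts, or 0.0784 to 0.120 CPM per library. Klrb1c, Ncr1, Klre1, Klrk1, Gzmb and Eomes had at least 2 libraries with none.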
